A study of Mus musculus with 96 samples.

Results

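The 10 genes described here mark the tendon lineage: *Scx*, *Tnmd*, *Mkx*, *Thbs4*, *Kera*, *Fmod*, *Chad*, *Cilp*, *Cilp2* and *Tnc*. They were taken by symbol from a count table of 41575 gene symbols, of which 22493 had a count in at least 1 library. Multiplexed RNA sequencing (MuSeq), in which each sample is barcoded at reverse transcription and then pooled, was applied to 96 libraries. They came from 16 tissues of 3-week-old mice, each with 3 libraries of wild-type (WT) mice and 3 of mice homozygous for a loss of *Scx* (*Scx*-/-). No other allele or treatment was named for either group, and which part of *Scx* the mutant allele lacks was not given in the sources used here, nor were strain, sex or the animal behind each library.

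*Scx* encodes scleraxis, a basic helix-loop-helix transcription factor that marks tendon and ligament progenitors and the cells that later attach tendon to bone. *Mkx* encodes Mohawk, a homeobox factor of later tendon cells. The other genes encode products of the mature tissue: tenomodulin (*Tnmd*), a membrane glycoprotein of tenocytes; the small leucine-rich proteoglycans keratocan (*Kera*) and fibromodulin (*Fmod*), which bind collagen fibrils; chondroadherin (*Chad*), a leucine-rich protein of cartilage and tendon; thrombospondin 4 (*Thbs4*) and tenascin C (*Tnc*), matrix glycoproteins of tendon, muscle-tendon junctions and other sites under load; and the cartilage intermediate layer proteins (*Cilp*, *Cilp2*). Most of these genes are therefore not private to tendon, and no tissue of the series is labelled tendon. In bulk RNA, fewer cells of a type and less RNA per cell cannot be told apart.

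Basic helix-loop-helix factors bind E-boxes, and the letters CANNTG were searched in the 250 bases upstream of the start site of each gene in RefSeq (build GRCm38.p6, the same assembly as mm10). The motif reads the same on both strands. Of the 10 genes, 8 were in the promoter table. At least 1 match was present in 66.22% of 32851 promoters of this length, and at least 3 in 12.21%. The promoters of *Fmod* and *Chad*, both lower in *Scx*-/- muscle, held 1 match each, and that of *Cilp*, which was not lower, held 3. *Cilp2*, also lower in muscle, held 1, and *Kera* and *Tnmd*, lower there too, held 0. The lower levels of *Chad* and *Tnmd* depended on 1 WT library. *Thbs4* and *Tnc*, which passed no threshold in muscle, held 1, and 2 or 3 depending on the start site. The windows of *Kera*, *Tnmd* and *Cilp2* and 1 of those of *Tnc* overlapped an annotated exon. That of *Kera*, from 97606955 to 97607204 on chromosome 10, lay wholly downstream of the gene's start in GENCODE (97606879). Those of *Fmod*, *Chad* and *Cilp* are shown 5′ to 3′ on the gene's strand with the matches in capitals, for chr1:134037004-134037253 (+), chr11:94564797-94565046 (+) and chr9:65264930-65265179 (+).
Fmod: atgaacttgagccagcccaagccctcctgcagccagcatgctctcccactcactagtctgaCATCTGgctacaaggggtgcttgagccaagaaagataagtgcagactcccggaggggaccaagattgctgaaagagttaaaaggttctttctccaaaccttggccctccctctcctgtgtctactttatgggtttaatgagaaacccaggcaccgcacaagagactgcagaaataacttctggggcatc
Chad: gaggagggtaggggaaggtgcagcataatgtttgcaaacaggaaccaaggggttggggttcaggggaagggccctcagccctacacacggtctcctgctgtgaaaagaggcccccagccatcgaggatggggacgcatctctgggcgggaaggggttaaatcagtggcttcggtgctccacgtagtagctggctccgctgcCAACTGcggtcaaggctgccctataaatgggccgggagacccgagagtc
Cilp: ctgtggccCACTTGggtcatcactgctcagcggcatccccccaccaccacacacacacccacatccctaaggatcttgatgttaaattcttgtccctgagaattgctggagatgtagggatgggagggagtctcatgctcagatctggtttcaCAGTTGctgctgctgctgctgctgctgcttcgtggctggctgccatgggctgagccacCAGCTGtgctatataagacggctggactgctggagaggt
These matches describe the letters of the window and not binding.

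Depth ranged from 11244 to 1658192 counts per library with a median of 251640, and values are given as CPM, the usual scaling of a gene's count to its library total. Low values rest on few reads. The 3 limb tissues were bone, cartilage and muscle. Their labels were checked against marker lists: 10 skeletal muscle genes took 24.7 to 28.7% of the counts in muscle, 12.7 to 15.9% in cartilage and 2.59 to 9.42% in bone. A list of 10 osteoblast and osteocyte genes took 4.43 to 6.28% in bone and 0.860 to 4.004% in cartilage. Of the 10 chondrocyte genes in the table, *Col11a2* and *Matn1* were at 0 in bone and in cartilage, and the list took 0.222 to 2.07% of counts in cartilage. The cartilage libraries thus held more RNA of skeletal muscle genes than of chondrocyte genes. Outside the limb, the libraries labelled adipose took 34.9 to 46.2% of their counts from 9 pancreatic acinar genes, with *Amy2a5* at 0, and at most 0.0169% from 7 adipocyte genes, with *Lep* and *Retn* at 0.

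*Scx* itself was rare. It had 80 counts in 12 of the 48 WT libraries and 9 counts in 1 of the 48 *Scx*-/- libraries. In bone it stood at 156, 33.5 and 0 CPM in WT and at 0 in all 3 *Scx*-/- libraries, and in muscle at 0, 12.6 and 14.8 CPM in WT and again at 0 in all *Scx*-/- libraries. Outside the limb, 34 counts were spread over 6 WT libraries: 11 in cortex, 7 and 3 in kidney, 6 in lung, 4 in vascular and 3 in stomach. The 39 *Scx*-/- libraries of these 13 tissues held none.

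Cartilage went against this pattern. The WT libraries had 0, 28.2 and 3.63 CPM of *Scx*, and the library labelled *Scx*-/- replicate 1 had 37.2 CPM, or 9 counts, while the other 2 had 0. The same library held the highest level of *Tnmd*, *Thbs4*, *Fmod* and *Chad* among the 6 cartilage libraries and the largest share of chondrocyte genes, 2.07% against 0.222 to 1.04% in the other 5. For *Kera*, *Cilp* and *Cilp2* it ranked 3 of 6 from the top, and for *Tnc* 4 of 6. The calls of the members in cartilage, in the joint limb fit and over 16 tissues are given with and without it. Leaving it out leaves 0 counts of *Scx* in the other 47 *Scx*-/- libraries. With it, the pooled level of *Scx* was 4.97 CPM in WT (exact 95% Poisson interval 3.94 to 6.18) and 0.514 CPM in *Scx*-/- (0.235 to 0.9749). These intervals and floors cover counting error only.

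*Scx* occupies chromosome 15 of mm10 from 76457452 to 76459458 on the plus strand, within *Bop1*, a ribosome biogenesis gene on the minus strand (76452989 to 76477277). The strand setting of the counting was not given, so reads of the pair may not be fully separated. *Bop1* was present in 41 WT and 40 *Scx*-/- libraries, and its log2 fold change (*Scx*-/- over WT) over all tissues was 0.11 ± 0.25 (SE; adjusted p = 0.916, edgeR). In intestine, where no library had a count of *Scx*, *Bop1* was lower by the criteria that the study used (a log2 fold change beyond 1 in either direction with an unadjusted p under 0.05), called the study's thresholds from here on. It stood there at 56.9, 0 and 234 CPM in WT and at 0 in all 3 *Scx*-/- libraries (adjusted p = 0.652, edgeR). Those 3 libraries held 111469 counts together, so that *Bop1* was at least 2.69-fold lower against a floor of 3 counts over the group. In muscle *Bop1* was at 1.12 ± 1.26.

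All 10 genes had their highest mean level in bone, cartilage or muscle, which held for 11.2% of all detected genes. *Scx*, *Tnmd*, *Mkx*, *Thbs4* and *Tnc* were highest in bone, *Kera*, *Fmod*, *Chad* and *Cilp2* in cartilage, and *Cilp* in muscle. These places pool the genotypes. Among *Scx*-/- libraries alone, the highest tissue of *Mkx* was cortex, and *Tnmd*, *Thbs4* and *Scx* were highest in cartilage and not in bone. *Tnmd* then had a mean of 90.3 CPM in cartilage and 23.1 in bone, *Thbs4* 307 and 156, and *Scx* 12.4 and 0. The *Scx* value came from 1 library, cartilage *Scx*-/- replicate 1. Without that library the *Scx*-/- cartilage means were 42.5 CPM for *Tnmd* and 123.2 CPM for *Thbs4*, the latter below its means in rectum (191) and bone. The place of *Cilp* also depended on the genotype: its WT means were 130.2 CPM in bone, 97.1 in cartilage and 86.5 in muscle, and muscle was highest only with the *Scx*-/- libraries. How closely the genes kept to the limb differed. Of the summed tissue mean CPM, which weights the 16 tissues equally, the 3 limb tissues held 99.2% for *Tnmd*, 93.6% for *Chad*, 89.2% for *Cilp2*, 87.8% for *Kera* and 83.7% for *Scx*. They held 79.0% for *Fmod*, 70.7% for *Cilp*, 58.6% for *Tnc* and 56.8% for *Thbs4*, but only 26.3% for *Mkx*. Raw counts, which also follow depth, gave other shares, 61.8% for *Scx*, 85.5% for *Cilp* and 7.89% for *Mkx*.

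*Tnmd* was the most restricted gene. It was found in 14 of 18 limb libraries and in 3 of the 78 others, with 6 counts in those 3. Its mean over 6 libraries was 117 ± 128 CPM (SD) in bone, 103 ± 65.7 in cartilage and 17.2 ± 36.2 in muscle. *Fmod*, in contrast, was found in 74 of 96 libraries and *Tnc* in 73, in 15 and 16 tissues. *Fmod* stood at 552 ± 270 CPM (SD, n = 6) in cartilage and 485 ± 171 in bone, then at 61.6 ± 106 in muscle, and the bone and muscle libraries did not overlap (exact two-sided permutation test, p = 0.00216, adjusted p = 0.203 over 94 neighbouring pairs). That was the smallest p that 6 against 6 libraries can give. Of the 94 pairs of neighbouring tissues in these orders, 5 had an unadjusted p under 0.05 by this exact test and 0 passed after adjustment, so most steps between adjacent tissues lay within the spread of the libraries.

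*Mkx* differed from the rest. It was absent from all cartilage and muscle libraries and had 9 counts in bone, in 1 WT and 1 *Scx*-/- library. Its steadiest signal was in cortex, with 8.44, 14.0 and 9.73 CPM in WT and 17.2, 17.3 and 2.18 CPM in *Scx*-/-, where the genotypes overlapped. Cortex was the only tissue with a count of *Mkx* in all 6 libraries.

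**Figure D1:**
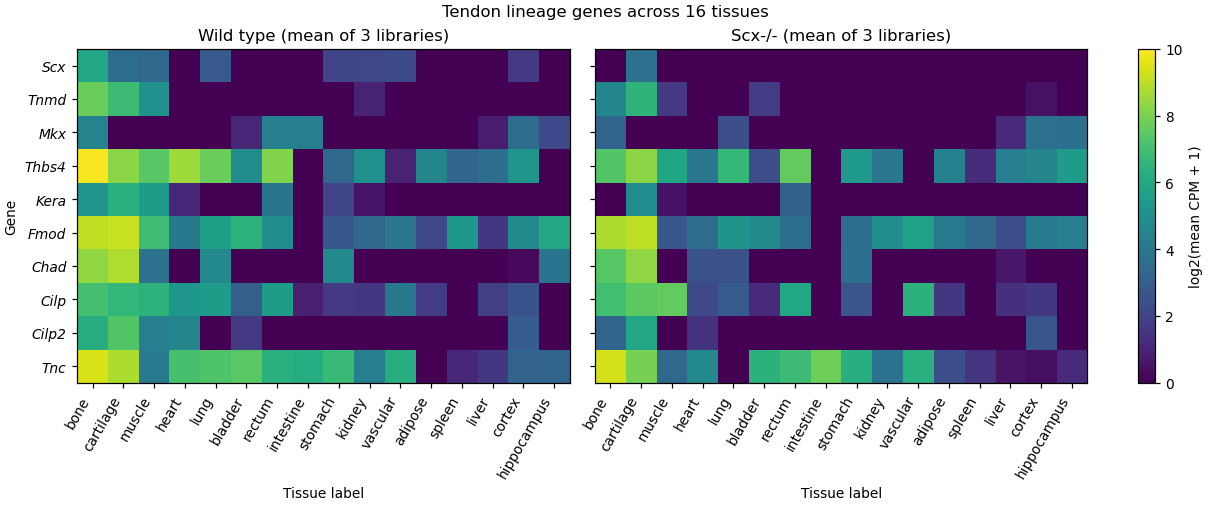
Mean level of the 10 genes (rows) in 16 tissues (columns) as log2(mean CPM + 1) of 3 WT libraries (left) and 3 *Scx*-/- libraries (right). The highest WT cell of each gene lies in bone or cartilage, *Mkx* is spread thinly, and in *Scx*-/- muscle *Kera*, *Chad* and *Cilp2* are at or near 0 while *Cilp* is not.

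Muscle showed the most members lower in *Scx*-/-. At the study's thresholds, 6 of the 9 genes with counts there were lower and 0 higher, where 2.44% of all genes tested were lower. These were *Scx*, which is the mutated gene, and *Tnmd*, *Kera*, *Fmod*, *Chad* and *Cilp2*. *Scx*, *Chad* and *Cilp2* were at 0 in every *Scx*-/- library and entered the test through WT alone. With low genes removed by filterByExpr, *Fmod* was the only one of the 6 still tested, and it passed. The median log2 fold change of the 9 genes was −4.28, or −3.44 with those 3 at their counting bound, against 0.24 for all genes.

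*Fmod* was the gene that also passed after adjustment. Its level was 32.9, 43.6 and 276 CPM in WT and 2.37, 7.77 and 6.93 CPM in *Scx*-/-. The genotypes did not overlap, although the WT values spanned a wide range and the lowest of them was a single read in a library of 30409 counts. The log2 fold change was −4.28 ± 0.98 (SE, adjusted p = 0.0322, edgeR quasi-likelihood test).

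*Kera*, the other small proteoglycan, had 0, 39.0 and 92.8 CPM in WT and 1.19, 0 and 0 CPM in *Scx*-/-. The pooled ratio of WT to *Scx*-/- rested on 1 count in the latter and was 141 (exact 95% counting interval 24.5 to 5627). The fitted log2 fold change of −6.26 ± 1.53 (SE) just missed the adjusted threshold (adjusted p = 0.0614, edgeR).

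*Cilp2* was at 0, 21.8 and 33.7 CPM in WT and *Chad* at 0, 0 and 38.0 CPM, both against 0 in *Scx*-/-. Measured against the floor of 3 counts over the group, *Cilp2* was at least 21.04-fold and *Chad* at least 10.8-fold lower. The whole *Chad* signal thus came from WT replicate 3. *Tnmd* likewise had 0, 5.74 and 90.7 CPM in WT and 0, 6.47 and 0 CPM in *Scx*-/-, so that the groups overlapped apart from that library.

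The remaining muscle genes did not pass. *Thbs4* was at 164, 76.9 and 264 CPM in WT and at 24.9, 89.3 and 58.9 CPM in *Scx*-/- (log2 fold change −1.26 ± 0.75, adjusted p = 0.771, edgeR). *Tnc* was low in both groups, at most 38.0 CPM. *Cilp* was at 0, 158 and 101 CPM in WT and at 128, 269 and 187 CPM in *Scx*-/-, a log2 fold change of 1.11 ± 0.68 (adjusted p = 0.771, edgeR). *Cilp* was the only member with a higher group mean in *Scx*-/- than in WT muscle.

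The muscle counts depended on single libraries. Without WT replicate 3 the median log2 fold change was −1.54 over the 8 genes left. Only *Kera* and *Cilp2* remained past the study's thresholds, beside 2.31% of all genes, *Fmod* was at −2.38 ± 1.46 (adjusted p = 0.856, edgeR) and *Tnmd* at −0.69 ± 2.73. Without WT replicate 1, the library of 30409 counts, 7 genes were lower beside 2.07% of all genes, *Thbs4* being added, with adjusted p = 8.72e-09 for *Fmod* and 0.000708 for *Kera* (edgeR). Without WT replicate 2, 5 genes were lower beside 1.90% and *Fmod* still passed (adjusted p = 0.0162, edgeR). Leaving out a *Scx*-/- library left 5 or 6 genes lower beside 1.46 to 1.83% of all genes. The fold change of *Fmod* was then −3.93, −4.54 and −4.41 without replicates 1, 2 and 3, and its adjusted p rose to between 0.522 and 0.886 (edgeR). Genes of other skeletal cells moved with this result: the osteoblast list took 0.437, 0.403 and 0.695% of counts in WT muscle and 0.274, 0.214 and 0.134% in *Scx*-/- muscle. That list includes *Col1a1*, which fibroblasts also express, and *Bglap*, *Bglap2*, *Ibsp*, *Sp7* and *Mepe* were at 0 in both genotypes. Chondrocyte genes were at most 0.0197% in WT and 0.000808% in *Scx*-/- muscle, with *Acan*, *Col9a1*, *Col9a3*, *Col11a2*, *Matn1*, *Matn3* and *Col10a1* at 0. Their part in the result was not tested.

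**Figure D2:**
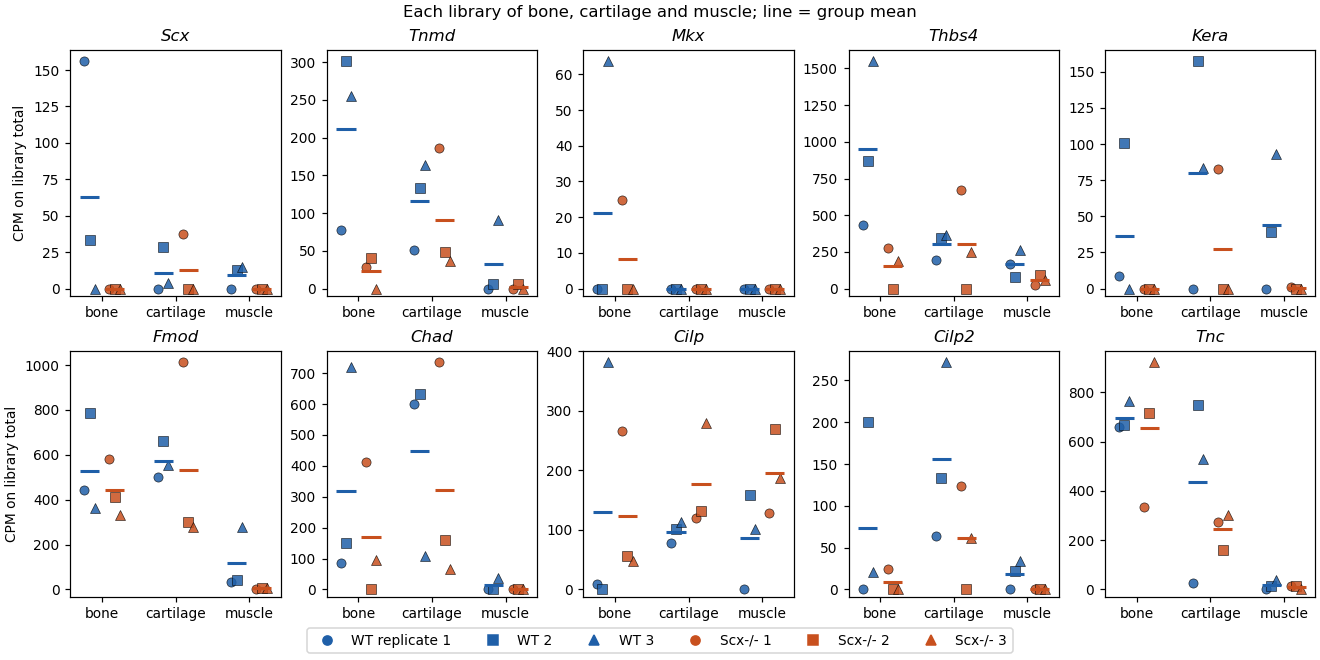
CPM of each gene in every library of bone, cartilage and muscle. Circles, squares and triangles are replicates 1, 2 and 3, blue is WT, orange is *Scx*-/-, and lines are means of 3 libraries. In muscle the 3 *Scx*-/- values of *Fmod* lie at 7.77 CPM or less, below all WT values, and in cartilage the orange circle is the highest point for *Scx*, *Tnmd*, *Thbs4*, *Fmod* and *Chad*.

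In bone, 2 of the 10 genes were lower at the study's thresholds, *Scx* and *Thbs4*, against 2.07% of all genes. *Scx* was at 0 in every *Scx*-/- library and entered through 20 WT counts, 18 of them in replicate 1. It no longer passed under 6 of the 10 alternatives tried. Among them were leaving out that library (−3.67), leaving out any 1 of the *Scx*-/- libraries, and DESeq2. *Thbs4* was at 433, 870.1 and 1549 CPM in WT and at 279, 0 and 189 CPM in *Scx*-/-, without overlap, a log2 fold change of −2.40 ± 0.74 (SE, adjusted p = 0.636, edgeR). Its sign and its side of the study's thresholds were the same under all 11 alternatives tried, leaving out each library in turn among them. *Tnmd* also did not overlap, with 78.0, 301 and 255 CPM in WT and 29.1, 40.2 and 0 CPM in *Scx*-/- (−2.74 ± 1.65, adjusted p = 0.636, edgeR), but missed the thresholds. *Kera* was at 8.67, 100.4 and 0 CPM in WT, resting on 7 counts, and at 0 in *Scx*-/-.

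The proteoglycan *Fmod* overlapped between the genotypes in bone: 442, 786 and 361 CPM in WT and 582, 410.4 and 331 CPM in *Scx*-/- (log2 fold change −0.07 ± 0.72). *Tnc* was at 659, 669 and 764 CPM in WT and at 333, 716 and 923 CPM in *Scx*-/- (−0.08 ± 0.65). *Chad* and *Cilp* varied more within a genotype than between them, *Chad* from 86.7 to 721 CPM and *Cilp* from 0 to 382 CPM in WT alone. *Cilp2* (0, 201 and 21.2 CPM against 24.9, 0 and 0 CPM) and *Mkx* rested on single libraries. Bone depth was low, 42272 to 240564 counts per library, and the intervals of these differences are wide. Adipocyte genes took 0.0117 to 0.0615% of counts in WT bone and 0.0648 to 0.128% in *Scx*-/- bone, with *Plin1* and *Lep* at 0 in both, and their part was not tested.

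In cartilage, 0 of the 9 genes with counts passed either threshold, where 1.46% of all genes were lower at the study's thresholds. The libraries labelled *Scx*-/- disagreed among themselves. *Fmod* was at 500.4, 661 and 555 CPM in WT and at 1013, 302 and 279 CPM in *Scx*-/-, and *Chad* at 601, 633 and 109 CPM against 736, 161 and 65.2 CPM. *Kera* was at 0, 157 and 83.4 CPM in WT and at 82.7, 0 and 0 CPM in *Scx*-/-. In each case the first *Scx*-/- value, from the library that held *Scx* counts, was above the other 2. The osteoblast list took 0.860, 4.004 and 3.75% of counts in WT cartilage, with none of its genes at 0, and 1.34, 1.56 and 1.72% in *Scx*-/- cartilage, with *Bglap2* and *Phex* at 0. Acinar genes took 0.0395 to 0.0918% in WT and 0.220 to 0.274% in *Scx*-/- cartilage, with *Amy2a5* at 0 in both, 7 adipocyte genes 0.129 to 0.234% and 0.113 to 0.127%, and 7 heart genes 0.0228 to 0.0375% and 0.00289 to 0.0117%, with *Myh6*, *Nppa*, *Tnni3* and *Myl7* at 0 in both. Their part in these values was not tested.

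Without that library, 3 of the 9 genes were lower in cartilage at the study's thresholds, against 1.17% of all genes: *Kera*, *Chad* (−1.95 ± 0.63) and *Cilp2* (−2.21 ± 1.07), each with an adjusted p of 0.830 by edgeR. *Kera* was at 0 in both remaining *Scx*-/- libraries and entered through WT alone, at least 13.4-fold lower against the floor of 3 counts over the group. *Fmod* then stood at −0.92 ± 0.53, *Thbs4* at −1.20 ± 0.68 and *Tnmd* at −1.37 ± 1.16. In this fit the 2 remaining *Scx*-/- libraries share their spread with the 3 of WT. The library was singled out after its values were seen.

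*Cilp* went the other way in cartilage. Its WT libraries were at 78.0, 101 and 112 CPM and its *Scx*-/- libraries at 119.9, 131 and 279 CPM, all above WT. The log2 fold change of 0.92 ± 0.74 had an adjusted p of 0.769 (edgeR). *Tnc* was at 27.5, 750.0 and 529 CPM in WT and at 273, 161 and 301 CPM in *Scx*-/-, with no order between the groups.

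When bone, cartilage and muscle were fitted together (9 libraries against 9, with tissue as a term), 7 of the 10 genes were lower at the study's thresholds, against 3.12% of all genes: *Scx*, *Tnmd*, *Thbs4*, *Kera*, *Fmod*, *Chad* and *Cilp2*. None passed after adjustment, which 0.00604% of all genes did in this direction. *Kera* had the lowest adjusted p (log2 fold change −3.73 ± 1.13, adjusted p = 0.505, edgeR). *Cilp2* followed at −2.63 ± 0.86, *Tnmd* at −2.16 ± 0.75, *Fmod* and *Thbs4* both at −1.16 (SE 0.46 and 0.45) and *Chad* at −1.26 ± 0.63. *Cilp* was the only member with a positive value, 0.86 ± 0.52, and *Tnc* (−0.55 ± 0.43) and *Mkx* (−0.37 ± 1.27) stayed near their errors. *Scx*, the mutated gene, is counted in the 7 genes and in the median over the 10, which was −1.21, beside 0.13 for all genes. Without the library labelled cartilage *Scx*-/- replicate 1, *Kera* passed at −6.23 (adjusted p = 0.00997, edgeR), with 1 count left in *Scx*-/-, and the others did not. The number lower at the study's thresholds was again 7, beside 2.92% of all genes. Under other alternatives the value shrank to −0.45 for *Chad*, −0.61 for *Fmod* and −0.89 for *Thbs4*, short of the study's limit of 1. The values of *Scx*, *Tnmd*, *Kera* and *Cilp2* stayed beyond it.

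Whether the genotype difference itself varied between the 3 tissues was tested as an interaction. *Fmod* had the lowest p of the 10 (F = 9.87, adjusted p = 0.286, edgeR), followed by *Chad* (F = 7.10, adjusted p = 0.847). None of the 10 passed, and 0.00604% of all genes did. Without the library labelled cartilage *Scx*-/- replicate 1 the values were F = 7.34 for *Fmod* and 5.40 for *Chad* (both adjusted p = 0.908, edgeR), and again none passed. A difference between tissues was not shown for any of them after adjustment.

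**Figure D3:**
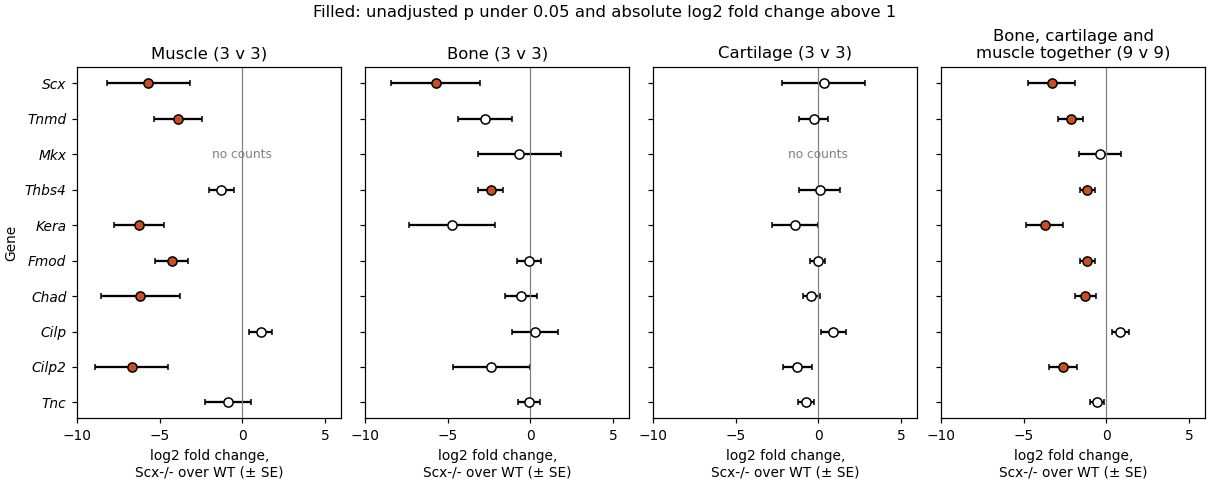
Fitted log2 fold change (*Scx*-/- over WT, points) with standard error (bars) for each gene in muscle, bone, cartilage and the 3 tissues together. Filled points passed an unadjusted p under 0.05 and a log2 fold change beyond 1: 6 in muscle, 2 in bone, 0 in cartilage and 7 in the joint fit. Points at or below −5 mostly belong to genes at 0 in *Scx*-/- and are not bounds.

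Over all 16 tissues (48 libraries against 48), *Kera* was the only member that passed after adjustment, at −2.41 ± 0.64 (adjusted p = 0.0403, edgeR), where 0.147% of all genes were lower. *Scx* stood at −2.58 ± 0.77 (adjusted p = 0.0976) and *Cilp2* at −1.73 ± 0.54 (adjusted p = 0.131, edgeR). Without the library labelled cartilage *Scx*-/- replicate 1, *Kera* was at −3.52 (adjusted p = 0.00156, edgeR). In the 13 tissues outside the limb *Kera* had 15 counts in WT and 7 in *Scx*-/- and was at −1.09 (adjusted p = 0.861, edgeR), and did not pass. Without replicate 2 or replicate 3 of every tissue it was also lost (adjusted p = 0.771 and 0.461, edgeR). With low genes removed by filterByExpr it just missed the threshold (adjusted p = 0.0505, edgeR), and DESeq2 gave it no adjusted p. Without adipose and vascular it was at −2.49 (adjusted p = 0.0296, edgeR). The other 7 genes had an adjusted p of at least 0.409 (edgeR). These fits count each library as independent, although the labels do not say which libraries share an animal.

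Within single tissues, 104 of the 160 possible combinations of gene and tissue had a count and were tested. At the study's thresholds 12 were lower and 1 was higher in *Scx*-/-, 13 in all. Of the 12, 5 were at 0 in every *Scx*-/- library and entered through WT alone, and 2 were *Scx* itself. The 1 that was higher, *Thbs4* in hippocampus, was at 0 in every WT library. With filterByExpr, which removes low genes, 3 of the 13 remained: *Fmod* in muscle and bladder and *Thbs4* in bone. The count was 16 without the library labelled cartilage *Scx*-/- replicate 1. The share of all gene and tissue combinations was 1.85% in each direction. The call of *Fmod* in muscle was the only one after adjustment, against 0.0914%. All 3 *Scx*-/- libraries lay below all WT libraries in 9 of the 104 combinations and above them in 2, against 3.86% and 4.11% of all combinations. Outside the limb, the combinations that passed belonged to *Thbs4*, *Tnc* and *Fmod*.

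*Thbs4* in heart was at 36.4, 978 and 107 CPM in WT and at 0, 0 and 43.1 CPM in *Scx*-/-. The highest value was 11 counts in a library of 11244, the shallowest of the series. The log2 fold change was −3.52 ± 1.23 (adjusted p = 0.738, edgeR), and without that library it no longer passed the study's thresholds. The osteoblast list took 0.0825 to 0.347% of counts in WT and 0.0453 to 0.0598% in *Scx*-/- heart, with *Bglap*, *Bglap2*, *Sp7*, *Dmp1*, *Phex* and *Mepe* at 0 in both. In bladder *Thbs4* was at 22.1, 16.1 and 43.4 CPM in WT and at 0, 0 and 12.3 CPM in *Scx*-/-, without overlap, and did not pass (−2.86 ± 1.96). In hippocampus it moved the other way: 0 in all 3 WT libraries and 47.6, 3.91 and 82.3 CPM in *Scx*-/-, a level at least 5.47-fold higher against a floor of 3 counts over the WT group. The WT hippocampus group held 446229 counts and the *Scx*-/- group 1250396. It no longer passed the study's thresholds under 2 of the 10 alternatives tried, leaving out *Scx*-/- replicate 3 among them. The osteoblast list also separated the genotypes there, at 0.00909 to 0.0173% in WT and 0.00274 to 0.00703% in *Scx*-/-, as did the adipocyte list, at 0.00210 to 0.0118% and 0.000207 to 0.00137%. Such shares are few reads at the depth of these libraries. The part of these lists in heart and hippocampus was not tested.

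*Tnc* in lung was at 46.8, 257 and 150.4 CPM in WT and at 0 in all 3 *Scx*-/- libraries, at least 12.4-fold lower over the group. It had 36 counts in WT, and the adjusted p was 0.741 (edgeR). It entered the test through WT alone. In bladder *Tnc* was at 61.2, 314 and 146 CPM in WT and at 84.8, 93.6 and 74.1 CPM in *Scx*-/-, where the groups overlapped (−1.12 ± 0.51, adjusted p = 0.804, edgeR). It no longer passed the study's thresholds under 5 of the 11 alternatives tried. Among them were leaving out WT replicate 2 (−0.34 ± 0.70) or *Scx*-/- replicate 3, filterByExpr and DESeq2. *Fmod* in bladder was at 76.5, 55.3 and 133 CPM in WT and at 31.5, 6.24 and 37.0 CPM in *Scx*-/-, without overlap (−1.89 ± 0.85, adjusted p = 0.804, edgeR). It no longer passed without WT replicate 1 (−1.98), WT replicate 3 (−1.50) or *Scx*-/- replicate 2 (−1.44). In bladder the osteoblast list took 0.949 to 1.497% of counts in WT and 0.579 to 0.714% in *Scx*-/-, with *Sp7*, *Dmp1*, *Phex* and *Mepe* at 0 in both. The 6 liver genes took 0.00625 to 0.0181% in WT, with *Serpina1a* and *Fga* at 0, and 0.0354 to 0.426% in *Scx*-/-. Their part in the bladder values was not tested.

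**Figure D4:**
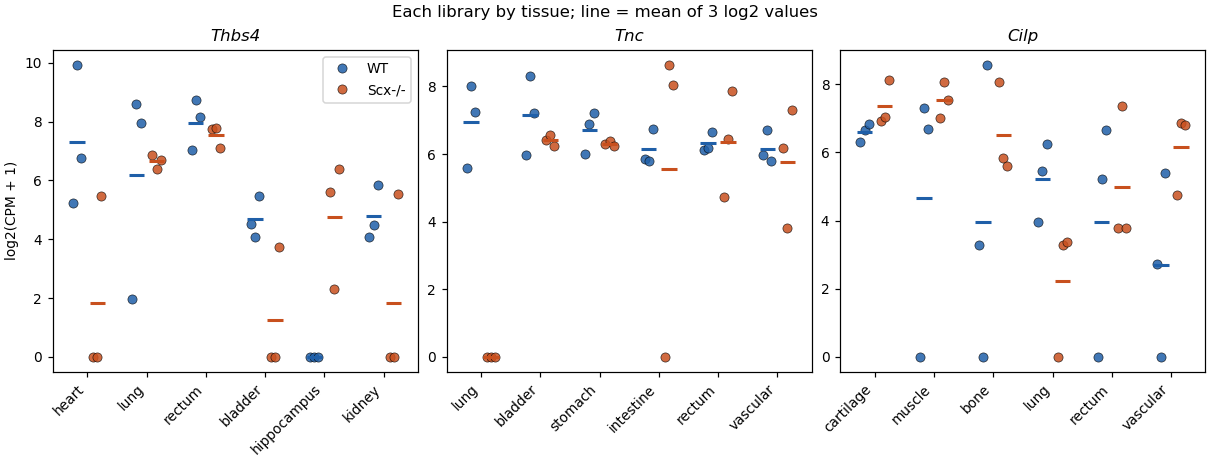
Level of *Thbs4*, *Tnc* and *Cilp* as log2(CPM + 1) in each library of 6 tissues per gene, blue for WT and orange for *Scx*-/-, with lines at the mean of the 3 log2 values. *Tnc* is at 0 in all 3 *Scx*-/- lung libraries, *Thbs4* is at 0 in all 3 WT hippocampus libraries, and *Cilp* is higher in *Scx*-/- cartilage and lower in *Scx*-/- lung, without overlap.

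Genes around the 10 were followed through 2 lists. Of 34 other tendon matrix genes (fibrillar collagens, proteoglycans, collagen-processing proteins), 31 were tested in the joint fit of bone, cartilage and muscle, with a median log2 fold change of −0.42 beside 0.13 for all genes. None of the 31 passed after adjustment, and 25 had a value below 0, which 45.4% of all genes had. Over 16 tissues 2 of 32 passed, both lower, beside 0.147% of all genes: *Col1a1*, the major collagen chain of tendon and bone (−0.64 ± 0.14, adjusted p = 0.00114), and *Serpinh1*, the collagen chaperone HSP47 (−0.83 ± 0.17, adjusted p = 0.000491, edgeR). *Serpinh1* was also lower at the study's thresholds in muscle (−1.27 ± 0.62), in cartilage (−1.11 ± 0.37) and in the joint limb fit (−1.07 ± 0.31). Without the library labelled cartilage *Scx*-/- replicate 1, *Serpinh1* was at −1.55 ± 0.44 in cartilage and −1.20 ± 0.34 in the joint fit, and 26 of the 31 were below 0 there, with a median of −0.47. Over 16 tissues 2 of 32 again passed without it, *Col1a1* at −0.63 and *Serpinh1* at −0.85 (adjusted p = 0.00179 and 0.000359, edgeR). The matrix list had its most adjusted calls in bladder, 5 of 31, beside 0.112% of all genes, all lower: *Col1a1*, *Col1a2*, *Col3a1*, *Col14a1* and *Serpinh1*, with log2 fold changes of −0.96 to −1.75 and adjusted p from 7.86e-05 to 0.00255 (edgeR). In kidney, where 0.195% of all genes passed, *Serpinh1* was the 1 gene of the list to do so (−1.26 ± 0.30, adjusted p = 0.0175, edgeR). No gene of the list passed after adjustment in muscle, bone or cartilage.

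Of 21 other regulators (transcription factors, growth factors and their receptors), 18 were tested in the joint limb fit, 8 had a value below 0 and 0 passed after adjustment (edgeR). Of all genes, 45.4% had a value below 0 in that fit. *Egr2*, a zinc finger factor, was lower at the study's thresholds there (−3.46 ± 1.25, adjusted p = 0.589, edgeR), where 3.12% of all genes were, and in cartilage. Without the library labelled cartilage *Scx*-/- replicate 1 it was at −3.23 ± 1.28 in the joint fit and no longer passed in cartilage. Other regulators were higher: in rectum 3 of 15, beside 3.59% of all genes, with a median of 2.71 over the 15 and 0.45 over all genes. There 7 epidermis genes took 0.00120 to 0.00402% of counts in WT, with *Krt5*, *Krt14*, *Krt1* and *Sbsn* at 0, and 0.626 to 1.587% in *Scx*-/-. The skeletal muscle genes took 0.0253 to 0.529% and 0.841 to 1.228%, and the liver genes 0.0294 to 0.0382% and 0.00762 to 0.0182%. Their part in the rectum values was not tested. Over 16 tissues, *Six2* and *Mstn* of 19 were higher, beside 2.69% of all genes, and *Eya1* was lower, beside 1.89%. Within single tissues 7 of 238 combinations were higher and 6 lower at these thresholds, beside 1.85% of all combinations in each direction. After adjustment 0 passed (edgeR). In muscle 7 of 18 regulators were below 0, as were 42.9% of all genes, with a median of 0.39, beside 0.24 for all genes. Their median in the joint limb fit was 0.15, against −0.42 for the matrix list.

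The genes whose levels ran most like those of the members over the 96 libraries were sought among 15926 genes with at least 10 CPM in 1 tissue, for the 5 members found in 24 libraries or more. These correlations describe libraries of 16 tissues that differ in depth. *Tnc* was closest to *Col1a1* (Pearson r = 0.75), *Col1a2* (0.72) and *Col5a2* (0.70). *Fmod* was closest to *Comp* (0.70), a cartilage and tendon matrix protein, *Col11a1* (0.68) and 3110079O15Rik (0.67). *Chad* ran with *Col22a1* (0.78), *Clec3a* (0.77) and *Col10a1* (0.77), the last a collagen of hypertrophic cartilage. *Cilp* ran instead with the muscle genes *Casq1* (0.74), *Klhl31* (0.73) and *Atp2a1* (0.73), and *Thbs4* with *Ptx3* (0.71) and *Casq1* (0.63). Pairs of members were compared over the 18 limb libraries of both genotypes, without the limit of 24 libraries. *Scx* had a count in 7 of the 18 and *Kera* in 8, so most of their values there were 0. *Scx* and *Kera* were the closest pair (r = 0.84), followed by *Fmod* and *Chad* (0.82), whereas *Scx* and *Cilp* had an r of −0.34. Without the library labelled cartilage *Scx*-/- replicate 1 these values were 0.82, 0.81 and −0.39 over 17 libraries.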

How the data were processed

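Per the labels and the study's methods, total RNA was reverse transcribed, made into Nextera XT libraries and sequenced; the study calls the protocol MuSeq and describes it as enriched for 3′ ends, whereas the record of the series calls it based on Smart-seq2. The authors aligned the reads with Bowtie2 (default settings, mm10) and obtained per-gene totals with HTSeq, and the deposited values are these raw counts. Their versions and the strand setting were not given. CPM was computed on library totals. Depth was 11244 to 1658192 counts per library, which limits the precision of low genes.

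Genotypes were compared with edgeR 4.0.16 (R 4.3.3, limma 3.58.1): TMM scaling, the quasi-likelihood test with robust estimation and Benjamini-Hochberg adjustment over all genes, within each tissue, over bone, cartilage and muscle, and over 16 tissues, the last 2 with tissue as a term. Only genes at 0 in every library of a fit were removed. A call is an adjusted p under 0.05; the study's thresholds are an unadjusted p under 0.05 and a log2 fold change beyond 1. The SE is the fold change divided by the square root of F. Scripts were tested on simulated counts. Neighbouring tissues were compared by an exact permutation test. Alternatives were RLE scaling, library totals, filterByExpr, DESeq2 1.42.0, a replicate block, dropping shallow libraries (under 50000 counts) or tissues, and leaving out each library. Python 3.11.15 with numpy 2.4.6, pandas 2.3.3, scipy 1.17.1 and matplotlib 3.10.9 was used. Promoter sequences are from RefSeq (GRCm38.p6) and gene positions from GENCODE on GRCm38. Vascular samples, which the study set aside because they carried brown fat genes, were kept, as were the adipose libraries with their acinar genes. Same-numbered libraries were checked for pairing and did not deviate together.

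All 10 genes are named, with *Bop1*, genes of the 2 lists that passed a threshold (up to 5 with the lowest p, or 3 at the study's thresholds) and the 3 most similar genes per member, of which 1 is not reported here. The members and lists were chosen with earlier results of these data known. No separate cultures or animals are given for the replicates, so p-values measure the spread between these libraries.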

Additional observations from a re-analysis of the deposited data

Results flagged for a closer look

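For a pair of members, every *Scx*-/- library lay on 1 side of every WT library in several tissues, and on opposite sides in different tissues. Over all combinations of gene and tissue, 3.86% had every *Scx*-/- library below WT and 4.11% above. *Thbs4* had a mean of 0 CPM in WT and 44.6 CPM in *Scx*-/- hippocampus, but 951 CPM in WT and 156 CPM in *Scx*-/- bone, and 27.2 CPM in WT and 4.12 CPM in *Scx*-/- bladder. *Cilp* had a mean of 97.1 CPM in WT and 177 CPM in *Scx*-/- cartilage, but 44.2 CPM in WT and 6.04 CPM in *Scx*-/- lung, and 2.03 CPM in WT and 0 CPM in *Scx*-/- kidney. *Cilp* passed no threshold in cartilage, lung or kidney, nor did *Thbs4* in bladder. The differences between these tissues were not tested, and the values rest on 5 counts for *Cilp* in kidney and 14 in lung, and on 44 for *Thbs4* in bladder and 46 in hippocampus, over 6 libraries each.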

How the results depend on the processing

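Within single tissues, the 1 adjusted call became 2 with RLE scaling, 3 with library totals and 2 with DESeq2, and 0 with a replicate block. It ranged from 0 (without muscle WT replicate 3) to 2 (without muscle WT replicate 1) when single libraries were left out. The call itself, *Fmod* in muscle, was also lost without any 1 of the muscle *Scx*-/- libraries. The 13 combinations past the study's thresholds became 3 with filterByExpr, which removes low genes, and 7 with the replicate block. For the joint fit of bone, cartilage and muscle, the count of 0 adjusted calls became 1 without cartilage *Scx*-/- replicate 1 and stayed at 0 without any other library. Over 16 tissues, the 1 adjusted call became 0 with filterByExpr, 0 with the replicate block, and 0 with DESeq2, which gave no adjusted p for *Kera*; it was 2 without the library labelled cartilage *Scx*-/- 1, of which 1 is *Scx*, which leaving out that library sets to 0 in every *Scx*-/- library, and 0 in the 13 tissues outside the limb, both chosen after seeing the data, and 0 to 1 without 1 replicate number.

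Signs turned for *Mkx*, *Cilp* and *Tnmd*: *Mkx* in the limb fit (−0.37) was 0.0036 with the block, 1.40 without libraries under 50000 counts and −1.34 to 1.20 without single libraries; *Mkx* over 16 tissues (0.09) was −0.041 with the block, −0.39 with DESeq2 and −1.19 to 0.50 without 1 replicate number; *Cilp* over 16 tissues (0.53) was −0.16 with DESeq2; *Tnmd* over 16 tissues (−1.39 ± 0.56, past the study's thresholds) was 0.61 in the 13 tissues, where it has 6 counts. The cause was not tested. The number of genes highest in the limb stayed at 9 or 10 of 10. Replicate numbers did not mark pairs: of 48 same-numbered pairs, 0 had a correlation of deviations over 0.1 (−0.178 to 0.0468). Direction and side of the study's thresholds held for 107 of 133 alternative values of the single-tissue fold changes, and 26 lost these thresholds. For the adjusted threshold, direction and side held for 234 of 238 values in the limb fit and 106 of 117 over 16 tissues. The main fits had 0 and 1 adjusted calls, so nearly all these values had no call to lose. They speak to direction and not to the 7 limb calls at the study's thresholds. Alternatives in which a gene was not tested are left out, as is *Kera* with DESeq2. Depth limits members with few counts, such as *Scx* (89), *Mkx* (114) and *Kera* (190). The interaction, the correlations between members over limb libraries and the 2 gene lists without cartilage *Scx*-/- replicate 1 were added after seeing the data.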
